A study of Mus musculus with 6 samples.

Results

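The genes described here encode the extracellular matrix of 4T1 cells and the receptors that hold cells to it: collagens, laminins, nidogen, adhesive glycoproteins, lysyl oxidase-like enzymes and integrins. They were taken by symbol, as all rows of the deposited expression table whose names follow the numbering of collagen, laminin, integrin, thrombospondin and lysyl oxidase genes, or that are Fn1, Tnc, Sparc, Fbn1, Fbn2, Nid1 or Nid2. The rule found 45 genes among 12656. It used no measured value. Of the 45 genes, 43 were among the 11931 genes tested, and Nid1 and Loxl1 were too low. The symbol pattern also caught 2 genes that are neither matrix nor receptor, Itgb1bp1 and Itgb3bp, which are described apart. Lox, Fbn1, Nid2 and the fibril collagen genes Col1a1, Col1a2 and Col3a1 follow the rule but were not among the 12656 genes.

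4T1 is a mouse mammary carcinoma line, a common model of triple-negative mammary tumours. The libraries hold polyadenylated RNA from 3 samples of 4T1 cells given LP-184 for 48 h and 3 samples given DMSO, the solvent; the study presents LP-184 as a chemotherapeutic, at a dose not given in the sources used here. Both groups are the same parental line grown as 1 cell type, with no host cells named. The labels do not say whether the 3 libraries of a group came from separate cultures, so the p-values speak for the spread among these libraries alone, and that spread may be only technical. Arms of the study in human cells and in mouse tumours were not analysed here.

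Libraries held 18952393 to 22471753 reads over the genes of the table in the LP-184 group and 18864368 to 21585323 in the DMSO group. Of all genes tested, 38.3% were called higher and 40.0% lower with LP-184, so a call alone separates few genes from the rest. Carcinoma cell markers were plain in both groups: 9 of 10 were measured, with summed levels of 4251 to 4292 CPM (read counts scaled to library size) with LP-184 and 5511 to 5532 CPM with DMSO. Of these markers 6 were called higher and 3 lower, and the lower sum lay mostly in Krt7, which averaged 705.0 CPM with LP-184 and 1926 CPM with DMSO. Of 9 fibroblast markers, Pdgfra and Postn were measured, with sums of 9.07 to 10.6 CPM and 7.76 to 10.1 CPM in the same order of groups, and of 7 endothelial markers, 0 were in the table. Of 8 leukocyte markers 3 were measured, and their sums, 59.9 to 72.2 CPM with LP-184 and 12.8 to 14.8 CPM with DMSO, came from Cd68 and Csf1r, while Lyz2 had 0 reads in every LP-184 library and averaged 1.62 CPM in the DMSO libraries.

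Epithelial and carcinoma cells rest on a basement membrane, a sheet in which a laminin polymer (each unit an alpha, a beta and a gamma chain) is tied to a network of collagen IV by nidogen and perlecan. Integrins are heterodimers of an alpha and a beta subunit that bind these proteins outside the cell and, through talin and kindlin, the actin skeleton inside it. Looser matrix outside the basement membrane is built from fibril collagens, fibronectin, tenascins and thrombospondins, and lysyl oxidases cross-link it.

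Most matrix and integrin genes were lower in LP-184 cells. Of the 43 tested, 33 were called lower and 6 higher, where 40.0% and 38.3% of all genes tested were. Of the 43, 21 were lower by 2-fold or more, a size that 12.6% of all genes tested reached. Only 2 were higher by 2-fold or more, where the share over all genes was 8.08%. The median log2 fold change (LP-184 minus DMSO) was -0.92, beside -0.01 over all genes tested. LP-184 and DMSO libraries did not overlap for 40 of the 43, where 79.1% of all genes tested had groups that did not overlap. Calls are from limma with Benjamini-Hochberg adjustment over all genes tested, at an adjusted p under 0.05. Itga1, Itgb3 and Tnc reached the minimum level for testing in DMSO libraries only, and Itgb7 and Thbs3 in LP-184 libraries only. These 5 were thus tested only through the group where they were higher. Their groups could not overlap once they were tested, and all 5 are counted among the 40. Without these 5 genes, 30 were called lower and 4 higher. Itga1, Itgb3 and Tnc are among the 21 lower by 2-fold or more, and Itgb7 and Thbs3 are the 2 higher by as much. In bulk RNA, fewer cells of a kind and less RNA per cell cannot be told apart.

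**Figure D1:**
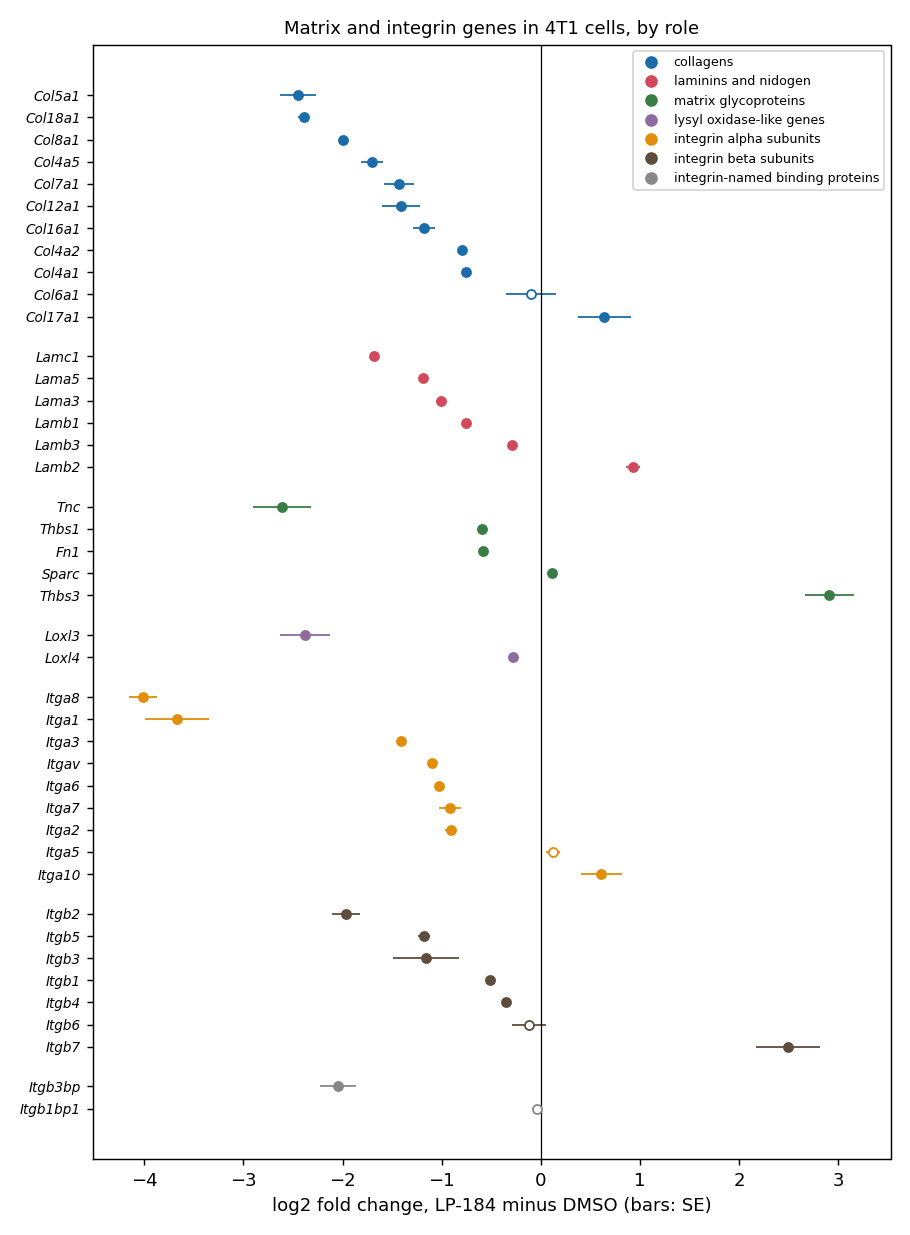
Log2 fold change (LP-184 minus DMSO, horizontal axis) of 42 matrix and integrin genes tested, grouped and coloured by role and ordered by size within each role. Points are limma estimates from 3 libraries per group, bars are their standard errors, and open points mark the 4 genes not called (Col6a1, Itga5, Itgb6, Itgb1bp1); most points lie left of 0, from Itga8 at -4.01, and Thbs3 lies farthest right at 2.91.

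The promoters of 5 genes on which the following results turn are shown from RefSeq (assembly GRCm38.p6), each from 250 bases before the start of transcription to 50 after it, on the strand of the gene. Col4a1, at chr8:11312777-11313076 on the minus strand, is shown because it starts head to head with Col4a2 and the 2 genes fell by almost the same amount. Capitals mark the 22 bases from the start of Col4a2, which runs the other way, to the start of Col4a1. They lie after both starts and are not a gap between the genes: they are annotated exon of both, on opposite strands, and 0.29% of the exon bases of Col4a1.
Col4a1: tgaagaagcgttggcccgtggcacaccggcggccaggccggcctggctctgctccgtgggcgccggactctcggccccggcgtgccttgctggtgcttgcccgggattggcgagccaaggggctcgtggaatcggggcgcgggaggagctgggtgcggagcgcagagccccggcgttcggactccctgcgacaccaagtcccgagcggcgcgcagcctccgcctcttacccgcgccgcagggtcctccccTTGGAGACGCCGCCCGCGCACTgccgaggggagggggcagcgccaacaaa

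Thbs3, Itgb7 and Lamb2 are shown because they had the largest rises of the set, and Itga8 because it had the largest fall. The windows are chr3:89214930-89215229 on the plus strand for Thbs3, chr15:102231886-102232185 on the minus strand for Itgb7, chr9:108479612-108479911 on the plus strand for Lamb2 and chr2:12301895-12302194 on the minus strand for Itga8. Capitals mark CG dinucleotides (CpG), of which they hold 8, 5, 4 and 23 in that order.
Thbs3: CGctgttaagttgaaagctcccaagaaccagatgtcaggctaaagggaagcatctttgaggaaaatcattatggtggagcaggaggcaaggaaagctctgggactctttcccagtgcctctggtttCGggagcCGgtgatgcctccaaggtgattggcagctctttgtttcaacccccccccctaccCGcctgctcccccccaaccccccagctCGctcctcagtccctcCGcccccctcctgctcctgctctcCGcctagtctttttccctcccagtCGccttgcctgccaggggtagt
Itgb7: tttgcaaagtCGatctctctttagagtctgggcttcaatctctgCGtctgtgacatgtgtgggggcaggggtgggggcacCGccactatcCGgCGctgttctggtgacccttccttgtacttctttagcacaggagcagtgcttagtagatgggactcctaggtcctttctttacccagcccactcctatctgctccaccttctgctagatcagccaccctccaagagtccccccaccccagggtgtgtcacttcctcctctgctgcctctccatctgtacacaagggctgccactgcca
Lamb2: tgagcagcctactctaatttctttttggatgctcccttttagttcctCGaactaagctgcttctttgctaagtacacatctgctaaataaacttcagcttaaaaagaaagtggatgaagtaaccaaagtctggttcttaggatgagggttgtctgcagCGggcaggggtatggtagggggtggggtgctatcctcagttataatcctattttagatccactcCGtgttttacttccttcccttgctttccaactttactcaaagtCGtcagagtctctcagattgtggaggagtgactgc
Itga8: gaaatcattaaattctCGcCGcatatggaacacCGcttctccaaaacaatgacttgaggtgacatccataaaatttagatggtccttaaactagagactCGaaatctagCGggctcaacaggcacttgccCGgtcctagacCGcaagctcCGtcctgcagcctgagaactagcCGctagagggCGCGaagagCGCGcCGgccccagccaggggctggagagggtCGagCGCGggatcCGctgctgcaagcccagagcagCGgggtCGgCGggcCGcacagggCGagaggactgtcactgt

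Among the collagens, 9 of the 11 genes tested were called lower and 1 higher, where 40.0% and 38.3% of all genes tested were. The median log2 fold change was -1.41. Their median span was 114.4 kb, and all genes tested that span over 100 kb had the same median fold change, -1.41. With the trend on gene length removed, described further on, the collagen median was -0.38. Col4a1, whose protein forms the common collagen IV trimer with that of Col4a2, had 195.7, 188.3 and 200.1 CPM in LP-184 libraries, against 328.4, 332.3 and 331.0 CPM in DMSO libraries. Col4a2 had 123.3, 113.2 and 114.8 CPM in LP-184 libraries, against 200.0, 208.0 and 202.7 CPM in DMSO libraries. Both were lower in every LP-184 library than in any DMSO library, by 0.76 ± 0.03 and 0.80 ± 0.03 on the log2 scale (SE, limma adjusted p = 1.9e-23 and 2.8e-21). The log2 ratio of Col4a1 to Col4a2 was 0.67, 0.73 and 0.80 with LP-184 and 0.72, 0.68 and 0.71 with DMSO, and the groups overlapped. With the length trend removed both Col4a1 and Col4a2 turned to higher (0.23 and 0.42).

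Col4a5, a collagen IV chain of specialised basement membranes, had 8.32, 8.67 and 6.13 CPM in LP-184 libraries, against 25.3, 25.3 and 24.5 CPM in DMSO libraries. It fell by 1.70 ± 0.11 on the log2 scale (limma adjusted p = 5.9e-16), further than the Col4a1 and Col4a2 pair, though without the length trend it was not called (0.18). Col8a1, a short network-forming collagen, had 109.5, 105.6 and 110.2 CPM in LP-184 libraries, against 427.5, 440.1 and 430.6 CPM in DMSO libraries. That is a 3.99-fold lower level, with little spread in either group (log2 fold change -2.0 ± 0.03, limma adjusted p = 8e-35). Col18a1, the basement membrane collagen from which endostatin is cleaved, had 16.4, 17.0 and 15.4 CPM with LP-184, against 81.5, 87.9 and 87.1 CPM with DMSO. It was 5.23-fold lower (-2.39 ± 0.06, limma adjusted p = 1e-27), and the lowest DMSO library stood far above the highest LP-184 library.

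The collagens of fibrils and of anchoring fibrils were scarcer. Col5a1, which sets the width of collagen I fibrils, had 1.75, 2.01 and 1.57 CPM in LP-184 libraries, against 9.71, 10.9 and 9.74 CPM in DMSO libraries. It fell by 2.45 ± 0.18 on the log2 scale, the largest fall of a collagen gene. Col7a1, of the anchoring fibrils under the epidermis, had 6.0, 4.17 and 3.98 CPM with LP-184, against 11.7, 12.4 and 14.1 CPM with DMSO (log2 fold change -1.43 ± 0.15). Col12a1 and Col16a1, which decorate fibrils, averaged 2.25 ± 0.179 and 7.05 ± 0.349 CPM with LP-184 and 6.26 ± 1.34 and 16.1 ± 1.38 CPM with DMSO (SD, n = 3 each), and both were called lower. Col12a1 was no longer called with the length trend removed (-0.36, limma adjusted p = 0.062).

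Col17a1, a collagen that spans the membrane in hemidesmosomes, was the collagen gene called higher. It had 2.02, 1.82 and 2.20 CPM in LP-184 libraries, against 1.18, 1.12 and 1.5 CPM in DMSO libraries, a log2 fold change of 0.64 ± 0.27 (limma adjusted p = 0.03). The groups did not overlap, but leaving out LP-184 replicate 1 or 3 or DMSO replicate 1 or 2 ended the call, with limma adjusted p between 0.062 and 0.092. Col6a1, a chain of beaded filaments, had 2.19, 2.20 and 2.52 CPM with LP-184, against 3.97, 1.68 and 2.25 CPM with DMSO. Its groups overlapped (log2 fold change -0.10 ± 0.25, limma adjusted p = 0.73), and the fold was 0.23 without DMSO replicate 1, the highest of the 6.

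**Figure D2:**
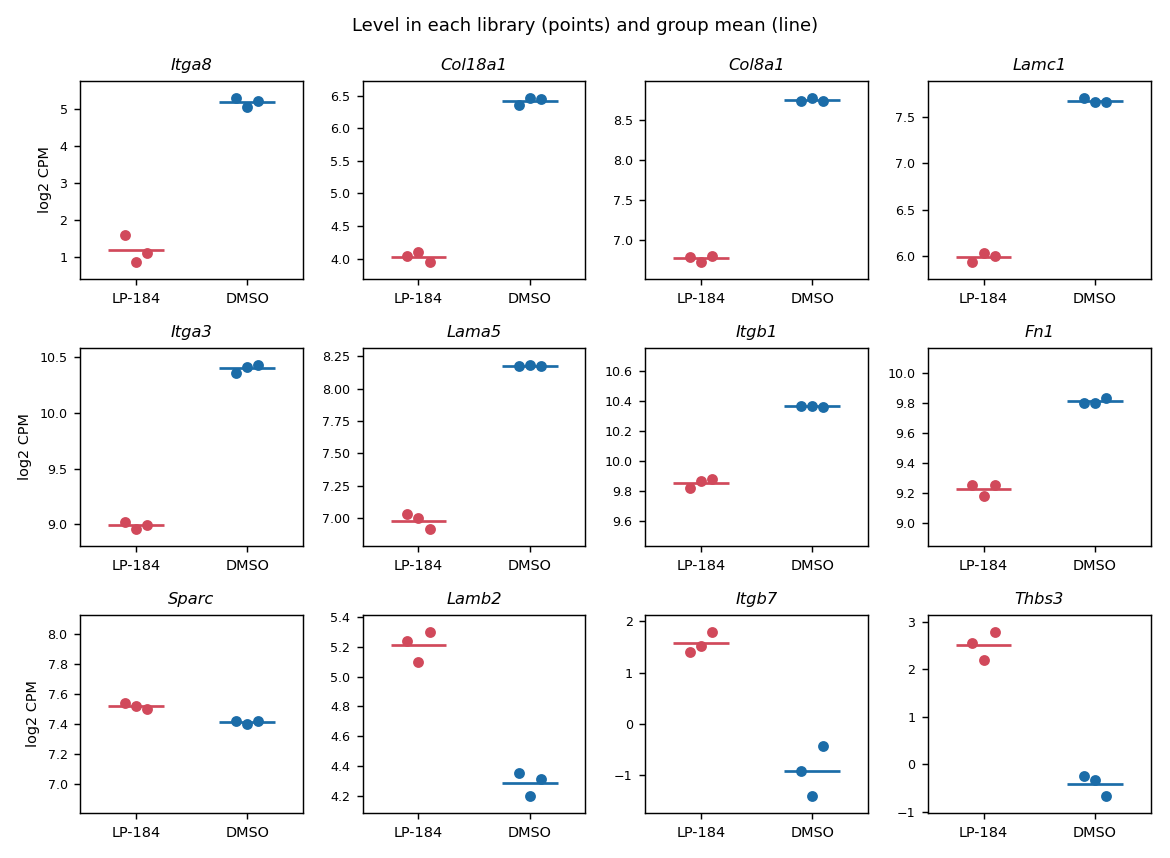
Level (log2 CPM, vertical axis, its own range in each panel) of 12 matrix and integrin genes in each LP-184 library (red, left) and DMSO library (blue, right), with a line at the group mean. In the first 8 panels the LP-184 libraries lie below the DMSO libraries, from Itga8 (log2 fold change -4.01) to Fn1 (-0.58), and in Sparc (0.11), Lamb2 (0.93), Itgb7 (2.49) and Thbs3 (2.91) above them. Itgb7 and Thbs3 were tested only through the LP-184 libraries.

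Of the laminin genes, 6 of 7 were called lower and 1, Lamb2, higher, where 40.0% and 38.3% of all genes tested were. Lamc1, the gamma chain of most laminins, had 61.5, 65.3 and 63.7 CPM in LP-184 libraries, against 207.9, 202.8 and 201.6 CPM in DMSO libraries. It fell by 1.68 ± 0.04 on the log2 scale (limma adjusted p = 7.5e-30), the largest fall among the laminin genes. Lamb3, the beta chain of laminin-332, the laminin of hemidesmosomes, had 128.0, 122.0 and 127.4 CPM with LP-184, against 157.3, 152.3 and 153.2 CPM with DMSO. It fell by 0.29 ± 0.03 on the log2 scale, less than Lamc1. Lama3, the alpha chain of the same trimer, averaged 36.4 ± 0.679 CPM with LP-184 and 73.6 ± 3.62 CPM with DMSO (SD, n = 3 each). Its log2 fold change was -1.01 ± 0.05. With the length trend removed Lama3 and Lamb3 turned to higher, at 1.09 and 0.92, but the span used for Lamb3 may be too long for these cells.

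Lama5, the alpha chain of laminin-511 and laminin-521, had 130.3, 128.0 and 120.8 CPM in LP-184 libraries, against 288.6, 289.0 and 287.0 CPM in DMSO libraries (log2 fold change -1.19 ± 0.03). Lamb1, the beta chain of laminin-511, had 171.6, 165.2 and 182.0 CPM in LP-184 libraries, against 285.9, 290.3 and 299.3 CPM in DMSO libraries (-0.76 ± 0.03). Lamb2, the beta chain of laminin-521, went the other way: it had 37.7, 34.3 and 39.2 CPM with LP-184, against 20.3, 18.3 and 19.8 CPM with DMSO. It was 1.90-fold higher (log2 fold change 0.93 ± 0.07, limma adjusted p = 9.1e-14), with every LP-184 library above every DMSO library. Per length of exon, Lamb2 made up 14.3% ± 0.412 of the RNA of the 3 beta chain genes with LP-184 and 5.71% ± 0.266 with DMSO, while Lamb1 made up 41.0% ± 0.639 and 52.6% ± 0.938 and Lamb3 44.7% ± 0.865 and 41.7% ± 0.788 in the same order (SD, n = 3 each). Lamb2 and Lamb1 thus moved in opposite directions within 1 family. Nid1, which links laminin to collagen IV, was too low to test, with 36 reads over the LP-184 libraries and 16 over the DMSO libraries.

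The 5 adhesive glycoproteins were mixed: 3 were called lower and 2 higher, where 40.0% and 38.3% of all genes tested were. Fn1, fibronectin, had 608.4, 581.8 and 606.7 CPM in LP-184 libraries, against 892.4, 890.0 and 908.5 CPM in DMSO libraries. Thbs1, thrombospondin 1, a secreted protein that activates latent TGF-beta, had 223.7, 222.0 and 231.7 CPM with LP-184, against 336.8, 337.1 and 345.1 CPM with DMSO. Both fell by close to the same amount, 0.58 ± 0.02 and 0.59 ± 0.03 on the log2 scale (limma adjusted p = 1.4e-23 and 1e-20). Tnc, tenascin C, a glycoprotein of wound and tumour stroma, had 0.438, 0.814 and 0.419 CPM with LP-184, against 3.76, 3.17 and 4.50 CPM with DMSO. It fell by 2.61 ± 0.29 on the log2 scale but rests on few reads in the LP-184 libraries. Sparc, a collagen-binding matricellular protein, differed little: it had 186.0, 183.8 and 180.4 CPM with LP-184, against 171.0, 169.2 and 170.6 CPM with DMSO. The groups did not overlap and the gene was called higher, by 0.11 ± 0.03 on the log2 scale (limma adjusted p = 0.0014), though not with the length trend removed (0.03).

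Thbs3, a thrombospondin that forms pentamers, had the largest rise of the set. Its LP-184 libraries held 5.74, 4.50 and 6.76 CPM, against 0.751, 0.699 and 0.535 CPM in its DMSO libraries, or 354 reads against 39 in all. The log2 fold change was 2.91 ± 0.25 (7.54-fold, limma adjusted p = 1.1e-12). Thbs3 reached the minimum level for testing in LP-184 libraries only, so its groups could not overlap and nothing is read from their separation. Thbs3 and Itgb7 were chosen for description after their values were seen. Annotated exons of Thbs3 and of Mtx1, its neighbour on the other strand, share 318 bases, 6.59% of the exon length of Thbs3, and Mtx1 was itself higher by 0.54 on the log2 scale. How the counting treated strand is not stated in the sources used here, so reads from those bases cannot be told apart.

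Of the lysyl oxidase-like enzymes, which cross-link collagen and elastin, both genes tested were called lower, where 40.0% of all genes tested were. Loxl4 was abundant, with 187.0, 190.6 and 199.4 CPM in LP-184 libraries, against 232.9, 231.8 and 236.3 CPM in DMSO libraries, and fell by 0.28 ± 0.03 on the log2 scale. Loxl3 had 1.49, 2.01 and 0.734 CPM with LP-184, against 8.58, 7.22 and 6.10 CPM with DMSO. It fell by 2.38 ± 0.25, the largest fall of a gene that spans under 30 kb in the set, and it shares 11.6% of its exon bases with Htra2 on the other strand, which was higher by 0.39. Loxl1 had 20 reads over the LP-184 libraries and 27 over the DMSO libraries and was not tested.

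Integrin alpha subunits were lower in 7 of 9 cases (median log2 fold change -1.03), where 40.0% of all genes tested were lower. Itga3, which pairs with beta1 as a laminin receptor, was the most abundant of them, with 521, 499 and 510.1 CPM in LP-184 libraries, against 1315, 1357 and 1384 CPM in DMSO libraries. It was 2.65-fold lower (log2 fold change -1.41 ± 0.02, limma adjusted p = 2e-34). Itga6, the laminin-binding partner of beta1 and beta4, had 156.8, 147.2 and 158.1 CPM with LP-184, against 315.9, 301.4 and 326.8 CPM with DMSO. Itgav, the alpha subunit of receptors for vitronectin and fibronectin, had 92.8, 96.5 and 91.8 CPM with LP-184, against 204.8, 193.5 and 206.1 CPM with DMSO. These 2 fell by similar amounts, 1.03 ± 0.03 and 1.1 ± 0.03 on the log2 scale, but with the length trend removed Itga6 was not called (-0.06) and Itgav was (-0.46).

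Itga8, which pairs with beta1 and binds nephronectin, had the largest fall of the set. It had 2.94, 1.73 and 2.04 CPM in LP-184 libraries, against 39.2, 33.4 and 37.5 CPM in DMSO libraries, a 16.1-fold lower level (log2 fold change -4.01 ± 0.14, limma adjusted p = 2.3e-23). Itga1, a collagen receptor with beta1, had 0.876, 0.287 and 0.210 CPM with LP-184, against 5.53, 6.94 and 5.94 CPM with DMSO (-3.67 ± 0.32). In Itga8 the LP-184 libraries lay far below the DMSO libraries. Itga1 was tested only through the DMSO libraries, so nothing is read from the separation of its groups. Itga2, another collagen receptor subunit, averaged 27.0 ± 1.23 CPM with LP-184 and 50.8 ± 1.98 CPM with DMSO, and Itga7, a laminin receptor subunit known from muscle, 9.87 ± 1.65 CPM and 18.6 ± 1.72 CPM in the same order (SD, n = 3 each). Both were called lower, by 0.91 ± 0.06 and 0.92 ± 0.11 on the log2 scale, although Itga2 was not called with the length trend removed (-0.08).

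The alpha subunits that were not lower were Itga5 and Itga10. Itga5, the fibronectin receptor subunit, had 28.5, 26.5 and 26.3 CPM in LP-184 libraries, against 24.8, 25.7 and 24.2 CPM in DMSO libraries. Its log2 fold change of 0.12 ± 0.07 was not called (limma adjusted p = 0.11), though it was with libraries centred on their medians (0.21, limma adjusted p = 0.008). Itga10, a collagen receptor subunit known from cartilage, had 3.64, 3.93 and 3.62 CPM with LP-184, against 2.95, 2.38 and 1.98 CPM with DMSO, and was called higher (0.61 ± 0.21, limma adjusted p = 0.0086), but not with the length trend removed (0.36). It shares 33.5% of its exon bases with a predicted gene on the same strand, and how reads there were counted is not stated in the sources used here.

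Of 7 integrin beta subunits, 5 were called lower and 1 higher, where 40.0% and 38.3% of all genes tested were. Itgb1, the partner of most alpha subunits, had 903.2, 933.2 and 941.4 CPM in LP-184 libraries, against 1326, 1320.0 and 1315 CPM in DMSO libraries. It fell by 0.51 ± 0.02 on the log2 scale (limma adjusted p = 2.2e-23), less than Itga3, Itga6 or Itgav. With the length trend removed Itgb1 was at -0.37 and Itga6 at -0.06, so Itga6 no longer fell further. Itgb4, which with alpha6 anchors hemidesmosomes, had 101.2, 104.6 and 101.4 CPM with LP-184, against 125.2, 131.2 and 134.6 CPM with DMSO (-0.35 ± 0.04). Itgb5, a partner of alphav, averaged 27.1 ± 1.84 CPM with LP-184 and 61.7 ± 3.20 CPM with DMSO (SD, n = 3 each) and fell by 1.18 ± 0.06 on the log2 scale. Itgb3, another partner of alphav, was near the minimum for testing, with 0.876, 0.671 and 0.419 CPM with LP-184, against 1.72, 1.21 and 1.71 CPM with DMSO (-1.16 ± 0.33). Itgb6, the epithelial partner of alphav that activates TGF-beta, averaged 4.26 ± 0.444 CPM with LP-184 and 4.65 ± 0.538 CPM with DMSO and was not called, with groups that overlapped; it spans 124.4 kb and was called higher, by 0.97, with the length trend removed.

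Of the leukocyte beta subunits, Itgb2 was called lower and Itgb7 higher. Itgb7 was tested only through the LP-184 libraries, so no contrast between the 2 genes is drawn. Itgb2, the common beta subunit of leukocyte integrins, had 3.20, 3.64 and 3.14 CPM in LP-184 libraries, against 13.5, 12.4 and 14.2 CPM in DMSO libraries (log2 fold change -1.97 ± 0.14, limma adjusted p = 9.6e-15). Itgb7, which pairs with alpha4 or alphaE, had 2.54, 2.78 and 3.35 CPM with LP-184, against 0.429, 0.280 and 0.642 CPM with DMSO, or 180 reads against 26 (2.49 ± 0.32, limma adjusted p = 1e-08). The groups of Itgb2 did not overlap, and those of Itgb7 could not, since it was tested only through the LP-184 libraries. Among the leukocyte markers, Cd68 averaged 31.3 ± 3.36 CPM with LP-184 and 10.2 ± 0.547 CPM with DMSO, Csf1r 34.5 ± 3.78 CPM and 1.98 ± 0.475 CPM in the same order (SD, n = 3 each), and Lyz2 had 0 reads with LP-184 and 96 with DMSO. Their part in the values of Itgb2 and Itgb7 was not tested.

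The genes caught by name alone gave unlike values. Itgb3bp, known as a centromere protein, had 2.32, 1.82 and 2.88 CPM in LP-184 libraries, against 10.4, 9.88 and 9.20 CPM in DMSO libraries (log2 fold change -2.05 ± 0.18). Itgb1bp1, a cytoplasmic protein that binds the beta1 tail, averaged 80.6 ± 2.15 CPM with LP-184 and 83.0 ± 0.980 CPM with DMSO (SD, n = 3 each) and was not called (-0.04 ± 0.04).

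Summed per kb of exon, the RNA of integrins, collagens and laminin alpha and beta chains was lower with LP-184. The 9 alpha subunits came to 126.7 ± 2.57 CPM per kb with LP-184 and 310.6 ± 6.41 CPM per kb with DMSO, and the 7 beta subunits to 252.0 ± 4.79 and 365.0 ± 1.18 in the same order (SD, n = 3 each). The 11 collagens came to 63.8 ± 1.59 CPM per kb with LP-184 and 152.2 ± 1.77 with DMSO. Laminin alpha genes came to 14.5 ± 0.375 CPM per kb with LP-184 and 32.2 ± 0.244 with DMSO, and beta genes to 42.6 ± 1.68 and 56.0 ± 0.654 in the same order. So the alpha subunits of integrins and the alpha chains of laminins lost a larger part of their level than the beta genes of their own families. These sums were not corrected for the length trend.

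Per length of exon, Itga3 led the alpha subunits and Itgb1 the beta subunits in both groups, while the leading collagen and the leading laminin beta chain differed. Itga3 made up 70.5% ± 0.0604 of the alpha subunit RNA with LP-184 and 76.2% ± 0.726 with DMSO, Itga6 13.5% ± 0.344 and 11.2% ± 0.364, and Itgb1 90.0% ± 0.323 and 88.7% ± 0.124 of the beta subunit RNA in the same order (SD, n = 3 each). Itga5 made up a larger share with LP-184, 4.34% ± 0.133, than with DMSO, 1.63% ± 0.0736, and Itga8 a smaller one, 0.239% ± 0.0622 against 1.60% ± 0.139. Among the collagens, Col4a1 held 40.9% ± 0.853 with LP-184 and 29.1% ± 0.177 with DMSO, Col4a2 27.7% ± 0.760 and 20.2% ± 0.172, and Col8a1, which led with DMSO, 21.7% ± 0.269 and 36.3% ± 0.157 in the same order. Col8a1 therefore stood first of the collagens with DMSO, but below Col4a1 and Col4a2 with LP-184. Over all families, on the scale of log2 CPM per kb of exon, Itgb1 (7.83 with LP-184 and 8.34 with DMSO), Itga3 (6.48 and 7.89) and Fn1 (5.68 and 6.26) were among the highest in both groups.

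The balance between chains that assemble together was compared within each library. Of 20 pairs of partner genes, both genes were tested in 15, and in 12 of these the log2 ratio did not overlap between LP-184 and DMSO libraries, with the first gene relatively lower in 7 and higher in 5. That share is close to the 79.1% of single genes with groups that did not overlap, so the count itself says little about these pairs. An exact two-sided permutation test of 3 libraries against 3 cannot go below p = 0.1, so no pair could pass 0.05; the smallest adjusted p over the 15 pairs was 0.125. The alpha subunits Itga3, Itgav, Itga6 and Itga2 were lower relative to Itgb1, by 0.89, 0.59, 0.52 and 0.40 on the log2 scale, and Itga6 was lower relative to Itgb4 by 0.68. These ratios still hold the trend on gene length described further on. With it removed, the single fold changes were -1.43 for Itga3, -0.46 for Itgav, -0.06 for Itga6 and -0.08 for Itga2. Those of Itgb1 and Itgb4 were -0.37 and -0.36, so Itga6 and Itga2 then no longer fell further than these beta subunits. Itga5 was higher relative to Itgb1 by 0.63, with ratios of -4.98, -5.13 and -5.16 with LP-184 and -5.73, -5.68 and -5.76 with DMSO. Itgav kept its ratio to Itgb5 within the spread of the libraries (a difference of 0.08), while relative to Itgb6 it was lower by 0.98. The ratio of Itgav to Itgb3 overlapped as well (0.05). Itgb3 had only 20, 14 and 8 reads with LP-184 and was tested only through the DMSO libraries, so no kept balance is read from it.

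The widest difference was in a laminin pair. The log2 ratio of Lamb2 to Lamc1 was -0.70, -0.93 and -0.70 with LP-184 and -3.35, -3.47 and -3.34 with DMSO, a difference of 2.61. For Lamb1 and Lama5 against Lamc1 the differences were 0.93 and 0.49. Lamc1 was thus lower relative to each of the 3 chains it was set against. With the length trend removed, the single fold changes were 0.60 for Lamb2, -0.34 for Lamb1, -1.02 for Lama5 and -0.70 for Lamc1. Lama5 then fell further than Lamc1.

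**Figure D3:**
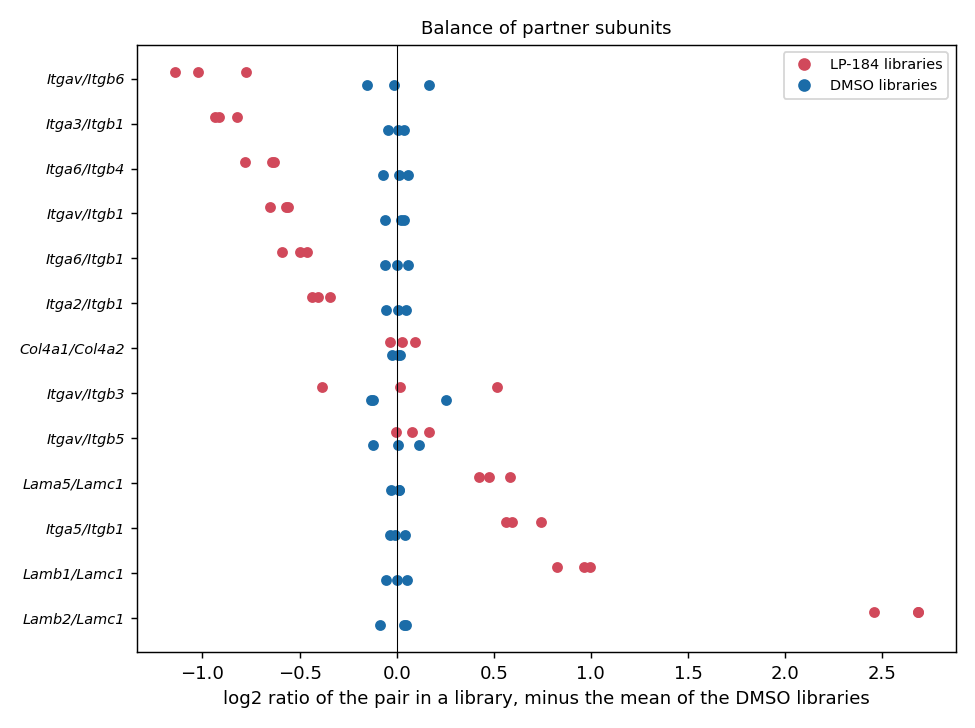
Log2 ratio of the levels of 13 pairs of partner genes in each LP-184 library (red, upper row of each pair) and DMSO library (blue, lower row), on the horizontal axis, minus the mean ratio of the DMSO libraries. The red points stand apart from the blue in 10 pairs, farthest for Lamb2/Lamc1 (2.61), and overlap them for Col4a1/Col4a2, Itgav/Itgb3 and Itgav/Itgb5.

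Fold change went with the genomic span of the gene, from first to last annotated exon on mm10. Over all genes tested, 67.5% of those that span over 100 kb were lower by 2-fold or more, 10.9% of those of 30 to 100 kb and 3.08% of those under 30 kb. Of the matrix and integrin genes, 12 of 16 over 100 kb, 8 of 16 between 30 and 100 kb and 1 of 11 under 30 kb, Loxl3, were lower by that much. Among these, Itga1 in the longest class and Itgb3 and Tnc in the middle class were tested only through the DMSO libraries. Nothing is read from their falls here, though the counts, medians and correlation of the set include them. Rises of 2-fold or more were seen in 11.8% of all genes under 30 kb, 2.72% of those of 30 to 100 kb and 1.22% of those over 100 kb; of the set, Thbs3 and Itgb7 rose by as much, both under 30 kb, but they were tested only through the LP-184 libraries so nothing is read from them here. The median log2 fold changes of the set were 0.11, -1.01 and -1.55 from the shortest class to the longest, beside 0.22, -0.25 and -1.41 over all genes in the same classes. Across genes, which share libraries and are not replicates, the Spearman correlation of span with fold change was -0.58 over the 43 genes and -0.50 over 11462.

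The set held many long genes: its median span was 63.7 kb, beside 21.8 kb over all genes tested. Lamb2 (chr9:108479736-108490530, plus strand), with the largest rise among genes not tested through 1 group only, spans 10.8 kb. Thbs3 (chr3:89215180-89226837, plus strand) spans 11.7 kb and Itgb7 (chr15:102215995-102231944, minus strand) 15.9 kb, but both were tested only through the LP-184 libraries. Itga8 (chr2:12106632-12301922, minus strand), with the largest fall, spans 195.3 kb. Itga1 (chr13:114953096-115101964, minus strand) spans 148.9 kb but was tested only through the DMSO libraries. Some shorter genes fell as well, such as Thbs1 (15.3 kb) and Itga3 (32.3 kb), and Lama3, the longest of the set at 249.2 kb, lay above the trend of all genes at its length. The span is that of all annotated transcripts. For Lamb3, given as 136.2 kb, both RefSeq starts lie well inside it, and so does the RefSeq start of Itgb3bp, given as 164.4 kb. The spans used in these cells may be shorter for both. Lamb3 and Itgb3bp were counted in the class over 100 kb, and their values with the length trend removed rest on these spans.

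With the trend of fold change on span removed, 25 of the 43 genes were called lower and 9 higher, where 38.9% and 35.3% of all genes were, and 11 were lower by 2-fold or more, where 6.56% of all genes were. The median was then -0.36. The 11 were Col18a1, Col5a1, Col7a1, Itga1, Itga3, Itga7, Itga8, Itgb2, Lama5, Loxl3 and Tnc, of which Itga1 and Tnc were tested only through the DMSO libraries. Itga8 was still lower by 2.27 on the log2 scale and Itga3 by 1.43, and Lamb2 was still higher (0.60). Thbs3 (2.59) and Itgb7 (2.19) were too, but these were tested only through the LP-184 libraries. Other falls were smaller than before, with Col5a1 at -1.07, Col18a1 at -1.4, Col8a1 at -0.84, Lamc1 at -0.70, Lamb1 at -0.34, Fn1 at -0.12, Itga1 at -2.33, Itgb5 at -0.14, Itgb3 at -0.77 and Itgb3bp at -0.57, and those of Thbs1 (-0.90) and Loxl4 (-0.53) were larger. Col4a1, Col4a2, Lama3, Lamb3 and Itgb6 were the genes called higher that had been lower or not called. The values of Lamb3 and Itgb3bp rest on spans that may be too long for these cells.

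**Figure D4:**
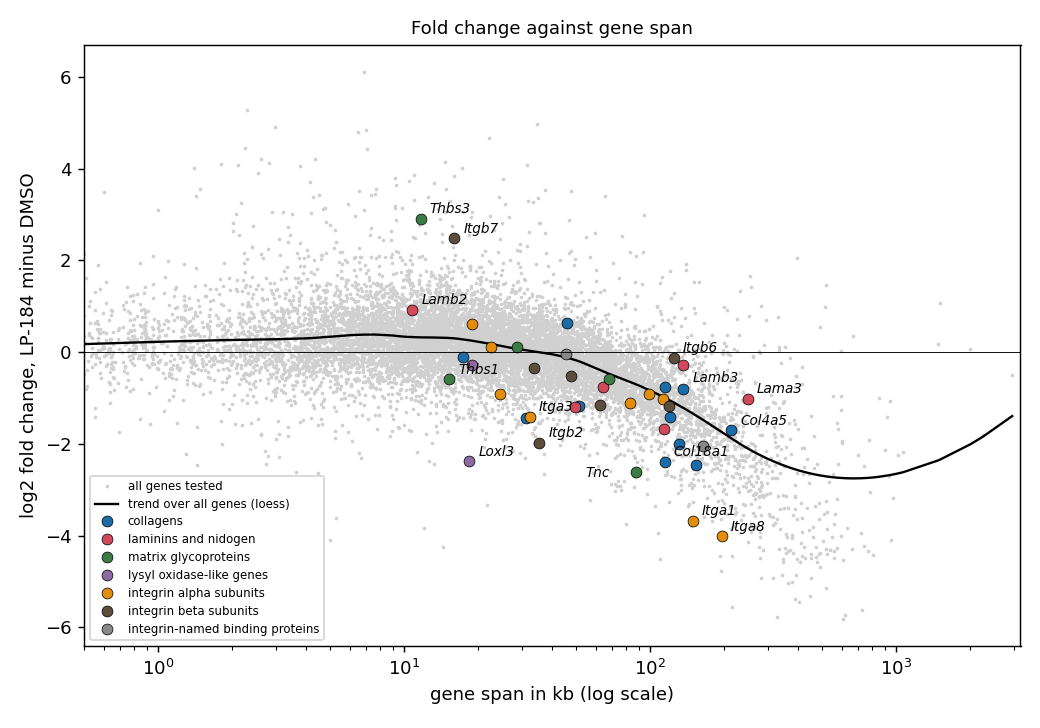
Log2 fold change (LP-184 minus DMSO, vertical axis) against gene span in kb (horizontal log axis) for 42 matrix and integrin genes, coloured by role, over all genes tested with a span (grey) and their loess trend (black line). Long genes lie lower; Loxl3 and Itga8 lie below the trend at their spans, and Thbs3, Itgb7, Lama3 and Itgb6 above it.

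RefSeq promoter windows were matched by symbol for 32 of the 45 genes, in 37 windows. Where a gene had several windows, the one with the most CpG was counted. The 6 genes called higher then had 4 to 8 CpG, and the 21 genes called lower with a window had 5 to 37, with a median of 20. The boundary was seen in these values, and it did not hold for genes at large: of 838 genes tested with 8 or fewer CpG, 40.5% were higher and 38.8% lower, and of 8016 with more, 39.3% were higher and 41.5% lower. The Col4a1 window shown above held 37 CpG, and it overlaps that of Col4a2 by 78 bases. Motifs were searched as letters on both strands, none of them containing another. GGGCGG was in 59.5% of the 37 windows and 64.1% of the windows of genes tested, CCAAT in 29.7% and 38.1%, TATAAA in 8.1% and 6.8%, and TGANTCA in 5.4% and 5.3% in the same order.

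Genes that modify and export collagen went both ways, beside 38.3% of all genes called higher and 40.0% lower: of 23 tested, 13 were called lower and 5 higher (median log2 fold change -0.16). Plod3, a lysyl hydroxylase, averaged 127.0 ± 4.99 CPM with LP-184 and 77.5 ± 3.37 CPM with DMSO (log2 fold change 0.71 ± 0.04), and P3h1, a prolyl 3-hydroxylase, 11.4 ± 0.448 and 7.95 ± 1.68 CPM in the same order (0.54 ± 0.13). P3h2, a prolyl 3-hydroxylase that acts on collagen IV, fell by 1.74 ± 0.21 and Adamts14, a procollagen N-proteinase, by 3.00 ± 0.23 on the log2 scale. With the length trend removed Plod3 was at 0.37 and P3h2 at -0.42, and P3h1 was not called (0.24).

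Among 7 other basement membrane genes, 5 were lower and 1 higher, where 40.0% and 38.3% of all genes tested were. With median centring 2 were higher. With the length trend removed 3 were higher and 4 lower, where 35.3% and 38.9% of all genes were. Hspg2, perlecan, had 41.8, 40.4 and 44.3 CPM in LP-184 libraries, against 140.4, 147.9 and 150.0 CPM in DMSO libraries (log2 fold change -1.79 ± 0.04). Agrn, agrin, had 202.1, 192.8 and 200.5 CPM with LP-184, against 154.5, 162.2 and 147.8 CPM with DMSO (0.36 ± 0.03). These 2 heparan sulfate proteoglycans of the basement membrane thus moved apart. Ntn1, netrin 1, is counted among the 5 lower (-4.44 ± 0.19). It was tested only through the DMSO libraries, so nothing is read from its fall. With the length trend removed Hspg2 was at -0.93 and Agrn at 0.33, both still called, and Ntn1 was at -2.73.

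Of 15 other matrix glycoproteins and proteoglycans, 11 were lower and 2 higher, where 40.0% and 38.3% of all genes tested were. Their median was -0.72. Ltbp1, which binds latent TGF-beta to the matrix, had 20.8, 23.1 and 20.4 CPM with LP-184, against 163.7, 162.2 and 156.3 CPM with DMSO (log2 fold change -2.90 ± 0.05), and Matn2, a matrilin, fell by 2.22 ± 0.16. Tnxb, tenascin X, rose by 2.03 ± 0.20 and Ecm1 by 1.25 ± 0.08. With the length trend removed, Ltbp1, which spans 386.9 kb, was at -0.35 and Matn2 at -1.07. Tnc, of the same tenascin family as Tnxb, was called lower. It was tested only through the DMSO libraries, so no contrast between the 2 genes is drawn.

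Receptors for matrix other than integrins were lower in 10 of 11 cases, where 40.0% of all genes tested were lower. Their median was -0.93, or -0.32 with the length trend removed. The heparan sulfate carriers Gpc4 and Sdc2 fell by 2.28 ± 0.20 and 1.46 ± 0.04 on the log2 scale, and the collagen receptor kinase Ddr1 was the exception, averaging 47.0 ± 3.56 CPM with LP-184 and 33.4 ± 0.539 CPM with DMSO (0.49 ± 0.06). Its relative Ddr2 was called lower, but not with the length trend removed (-0.04), when Gpc4 and Sdc2 were at -1.31 and -0.47.

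Inside the cell, 24 of 36 genes of the integrin adhesion complex were lower and 7 higher, where 40.0% and 38.3% of all genes tested were. The median was -0.40. The lower ones included Tln1 and Tln2, the talins, Ptk2, focal adhesion kinase, and Vcl, vinculin, but with the length trend removed Tln2 (0.63), Ptk2 (0.68) and Vcl (0.53) were called higher. Dock1, which activates Rac together with Elmo1, fell furthest, with a log2 fold change of -4.11 ± 0.18, and spans 503.0 kb. With the length trend removed Dock1 was at -1.41. Elmo1 spans 517.8 kb and had a log2 fold change of -3.23 ± 0.46, but was not called with the length trend removed (-0.53). It had 5 reads over the LP-184 libraries and was tested only through the DMSO libraries, so nothing is read from its fall. Git1, a scaffold that binds paxillin, rose by 0.99 ± 0.03 and Crkl, an adaptor, by 0.68 ± 0.05. With the length trend removed, 16 genes of the list were called higher and 11 lower, where 35.3% and 38.9% of all genes were. The median was then 0.02, so these counts say little about the list.

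In the authors' deposited table, all 43 genes had the same sign as here, and 6 were higher and 33 lower at a false discovery rate under 0.05. The authors' deposited table and the fit here differed by a median of 0.002 on the log2 scale and by at most 0.19, for Itgb7.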

How the data were processed

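Polyadenylated RNA of 4T1 cells was sequenced in 6 libraries, 3 per group; the control columns of the table were read as DMSO libraries 1 to 3. The submitters' processing notes list the builds mm10 and hg38 and the tools edgeR, featureCounts, Subread 2.0, STAR 2.7 and fastp; settings, strand and annotation are not stated in the sources used here. The authors deposited log2 CPM for 12656 genes. In these deposited log2 values 0 reads is -3.34 in every library, so a prior of about 2 reads, scaled to library size, understates the changes of low genes. Removing it gave whole reads for 100% of values (tolerance 0.001 reads), from which the CPM printed here were computed. A second deposited table holds the comparison made by the authors (log2 fold changes and p-values, by a test not stated there).

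A gene was tested where 3 or more libraries reached 1 CPM (log2 CPM of 0). The test was limma 3.58.1 (R 4.3.3) on the deposited log2 CPM, two-sided, for 2 groups, with moderated variances that follow a trend on the mean and with Benjamini-Hochberg adjustment over all genes tested and a threshold of 0.05. Errors after log2 fold changes are standard errors. The procedure was tested on simulated data. The values of 1 gene, though counted, are not reported here. Genes with per-library values were those always named (key laminin, collagen IV, integrin and glycoprotein genes) and up to 8 rises and 8 falls, the largest among those called with no overlap of the groups and a higher mean of at least log2 CPM 3; in each pathway list, the 2 largest rises and 2 largest falls called were named. Other genes were picked once their values were seen. The genes, lists and tests were chosen with earlier results of these data known.

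Spans, exon lengths (union of exons) and coordinates (1-based) are those of GENCODE for mm10 (GRCm38), found by symbol for 95.9% of genes and for all 45 described. The length trend is a loess curve (span parameter 0.3) of fold change on log10 span. Promoters come from RefSeq on GRCm38.p6. Alternatives were median centring, quantile normalization, other pseudocounts, no filter or a stricter filter, no variance trend, voom on recovered reads, a replicate block, removal of the length trend, a threshold of 0.01 and leaving out each library; leaving out genes that reached the filter in 1 group only was added after seeing the data. Replicate libraries correlated at 0.994 to 0.995 (Pearson, log2 CPM), and none was a duplicate: their chi-square per gene was 2.21 to 2.49. Deviations of same-numbered LP-184 and DMSO libraries from their group means were uncorrelated (r of -0.018 to -0.006). Summaries used scipy 1.17.1, numpy 2.4.6 and pandas 2.3.3 under Python 3.11.15.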

Additional observations from a re-analysis of the deposited data

How the results depend on the processing

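Among the alternative fits of single matrix and integrin genes, 644 kept direction and side of the threshold, 9 lost the call, 2 gained it and 12 changed sign. With log2(CPM + 1), log2(CPM + 0.1), no filter, no variance trend or voom on recovered reads every gene did, and 6 genes were called higher and 33 lower. The stricter filter left 3 called higher and 1 higher by 2-fold or more, since it tested fewer genes (37). With the length trend removed 11 were lower by 2-fold or more and the median was -0.36. There Col4a1 (0.23), Col4a2 (0.42), Col4a5 (0.18), Itgb1bp1 (0.07), Itgb6 (0.97), Lama3 (1.09) and Lamb3 (0.92) turned positive and Itga5 (-0.06) negative. The value of Lamb3 rests on a span that may be too long for these cells. Quantile normalization turned Col6a1 (0.11) and Itgb6 (0.14), median centring Itgb1bp1 (0.04), and log2(CPM + 1) the ratio of Itgav to Itgb3 (-0.47). Leaving out 1 library at a time gave 3 to 6 genes called higher, 30 to 33 called lower and 0 to 2 higher by 2-fold or more; Thbs3 and Itgb7 reach the filter in LP-184 libraries only, so without any of these they were not tested. The log2 fold change of Col6a1 then ran from -0.37 to 0.23 and the ratio of Itgav to Itgb3 from -0.18 to 0.27.

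The replicate numbers did not pair the libraries. With the replicate block 6 genes were called higher and 33 lower, and over all genes 4550 and 4741, where the fit without it gave 4574 and 4767. Depth limits the scarce genes: Itgb3, Tnc, Itga1, Itgb7 and Thbs3 rest on few reads in 1 or both groups, and their standard errors reach 0.33.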
